A study of Mus musculus with 12 samples.

Results

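The genes described here are 35 members of glycolysis and of the transcriptional response to low oxygen. They were chosen by name, with earlier results of these data known, and all 35 were found among the 54532 gene rows of the table. Every member reached 1 FPKM (fragments per kilobase of exon, scaled to the depth of the library) in at least 3 of the 12 libraries, so that all 35 stood among the 12871 genes tested. The libraries were made from bone marrow mesenchymal stem cells (MSCs) at passage 3, taken from the femurs, tibiae and humeri of 4-week-old C57BL/6 mice. The mice were either Chd7fl/fl (labelled WT and called control here) or Prx1-cre;Chd7fl/fl (labelled Chd7 KO and called knockout here), so both genotypes carried the floxed allele. Prx1-cre is driven by a promoter active in the early limb mesenchyme and removes exon 2 of Chd7, a chromatin remodeller, from cells of that descent. Cells of each genotype were kept for 5 days in osteogenic medium, which contained β-glycerophosphate (10 mM), dexamethasone (10 nM) and ascorbic acid (50 µM), or in adipogenic medium, which contained isobutylmethylxanthine (0.5 µM), dexamethasone (1 µM) and insulin (10 µg/ml). Each of the 4 groups held 3 libraries. Nothing in the sources used here says that the 3 came from separate animals, so the p-values given here measure only the spread between these libraries, which may be technical.

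Glycolysis turns glucose into pyruvate in a chain of cytosolic steps, and lactate dehydrogenase and the monocarboxylate carriers then turn pyruvate to lactate and take it out of the cell. In low oxygen the factor HIF-1, whose oxygen-regulated subunit is encoded by Hif1a, escapes hydroxylation by the EGLN enzymes and raises most genes of this chain together with genes such as Vegfa and Bnip3. MSCs are known to lean on glycolysis before they differentiate. Gapdh, the glyceraldehyde-3-phosphate dehydrogenase of the chain, is also widely used as a constant reference in qRT-PCR, and it served as such for the osteogenic samples of this study, with Rplp0 in its place for the adipogenic samples. The questions asked of the table were whether the spread of Gapdh between replicates was shared by the other glycolytic genes, and how the members differed between genotypes and media.

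The 12 libraries held between 17490797 and 21093450 fragments on genes, as recovered from the steps of the FPKM values, and counting error was small beside the differences described. One library was less like the rest of its own group than like the other groups. Across the 12871 genes, control adipogenic replicate 2 correlated with the 2 other control adipogenic libraries at r = 0.939 and 0.943 and with the 6 osteogenic libraries at 0.980 to 0.984, whereas control adipogenic replicates 1 and 3 correlated with each other at 0.989. Replicate 2 correlated with the knockout adipogenic libraries at 0.964 to 0.969. Replicates 1 and 3 correlated with those at 0.919 to 0.952 and with the osteogenic libraries at 0.928 to 0.937. Which of the 3 control adipogenic libraries departs from its condition cannot be told from these values. Counts of called members are given with and without replicate 2, as are the single differences that rest on it. It was picked out by its values in these same data, and 2 control adipogenic libraries that resemble each other remain without it. The SEs and adjusted p-values without it depend on this choice and serve as description only. The cultures also expressed macrophage genes at high level. Of 12 macrophage markers all 12 were detected, and their summed level was 13908 to 14435 FPKM in control osteogenic, 15540 to 15920 in knockout osteogenic, 19265, 9543 and 19276 in control adipogenic replicates 1, 2 and 3, and 7642 to 9197 in knockout adipogenic libraries. The 10 mesenchymal stromal markers summed to 1076 to 1622 FPKM, of which 9 were detected in at least 3 libraries. Among the 6 adipocyte markers 0 were, with a sum of at most 1.31 FPKM in any library. A lower member level in such bulk samples cannot tell fewer cells of a type from less RNA per cell. Chd7 itself stood at 2.64, 2.67 and 2.77 FPKM in control osteogenic, 2.03, 2.35 and 2.28 in knockout osteogenic, 2.26, 1.81 and 2.23 in control adipogenic and 2.03, 2.35 and 2.48 in knockout adipogenic libraries, for replicates 1, 2 and 3 in order. The knockout osteogenic libraries all lay below the control libraries, with a difference of -0.20 (SE 0.08, adjusted p = 0.160) on the log2(FPKM + 1) scale that was not called, and in adipogenic medium the groups overlapped, at 0.09 (SE 0.08, adjusted p = 0.428). The row counts the whole gene and not the deleted exon alone, so it does not check the deletion.

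Gapdh (chr6:125161715-125166467 in GRCm38, minus strand) had the largest share of mRNA sequence among the members that recurs in other annotated transcripts. Of the 100-base windows of its mRNA, 78.0% were also found letter for letter in annotated transcripts of other genes. All windows of its coding sequence (100%) were, and the same held for Pgk1 and Pgam1. Rows of the table that aligned to the mRNA over at least 900 bases at 95% identity or more numbered 67, of which 63 were annotated as processed pseudogenes, and 23 of the 67 had 99% identity or more. These thresholds were set after the levels were seen. Of the copies with 1 mismatch and no gap, the 3 with the highest mean level are shown, because within the aligned stretch a read from the Gapdh mRNA can be told from such a copy only where it covers the base in capitals. Positions are counted from 1 at the first base of the Gapdh coding sequence, and each pair gives the base of Gapdh and then that of the copy, with 30 bases on either side.
Gapdh around T385A: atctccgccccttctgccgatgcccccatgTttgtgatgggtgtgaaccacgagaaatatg
Gm5559 (chr5:95861714-95862715): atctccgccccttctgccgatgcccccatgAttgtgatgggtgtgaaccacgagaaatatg
Gapdh around G361A: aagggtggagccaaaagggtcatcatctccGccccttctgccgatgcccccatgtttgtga
Gm12070 (chr11:26786633-26787634): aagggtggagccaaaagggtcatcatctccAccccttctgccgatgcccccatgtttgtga
Gapdh around A346C: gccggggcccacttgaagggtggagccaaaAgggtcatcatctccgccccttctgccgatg
Gm13394 (chr2:28933610-28934609): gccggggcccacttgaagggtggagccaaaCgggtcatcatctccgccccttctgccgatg
The longest stretch without a mismatch was 617 bases for Gm5559, 641 for Gm12070 and 654 for Gm13394.

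The Gapdh row was both low and uneven. Its level was 4.34, 4.14 and 4.42 FPKM in control osteogenic, 21.3, 6.58 and 28.7 in knockout osteogenic, 9.50, 33.9 and 56.1 in control adipogenic and 28.7, 17.9 and 4.18 in knockout adipogenic libraries. The 3 control osteogenic libraries lay close together, the highest at 1.07 times the lowest, whereas each of the other groups held a low and a high library. The highest replicate had 4.36 times the level of the lowest in knockout osteogenic, 5.91 times in control adipogenic and 6.87 times in knockout adipogenic cells. Pgk1, the phosphoglycerate kinase of the next step, was listed at 213 to 620.2 FPKM, and Tpi1, the triose phosphate isomerase of the step before, at 119 to 295. The lowest Gapdh value rested on 288 fragments, so counting error was small beside its spread. The pooled SD of Gapdh within groups was 1.05 on the log2(FPKM + 1) scale, which was exceeded by 0.451% of the tested genes. The same SD over the other 34 members had a median of 0.233 and a range of 0.0576 to 0.691, against a median of 0.111 for all tested genes.

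**Figure D1:**
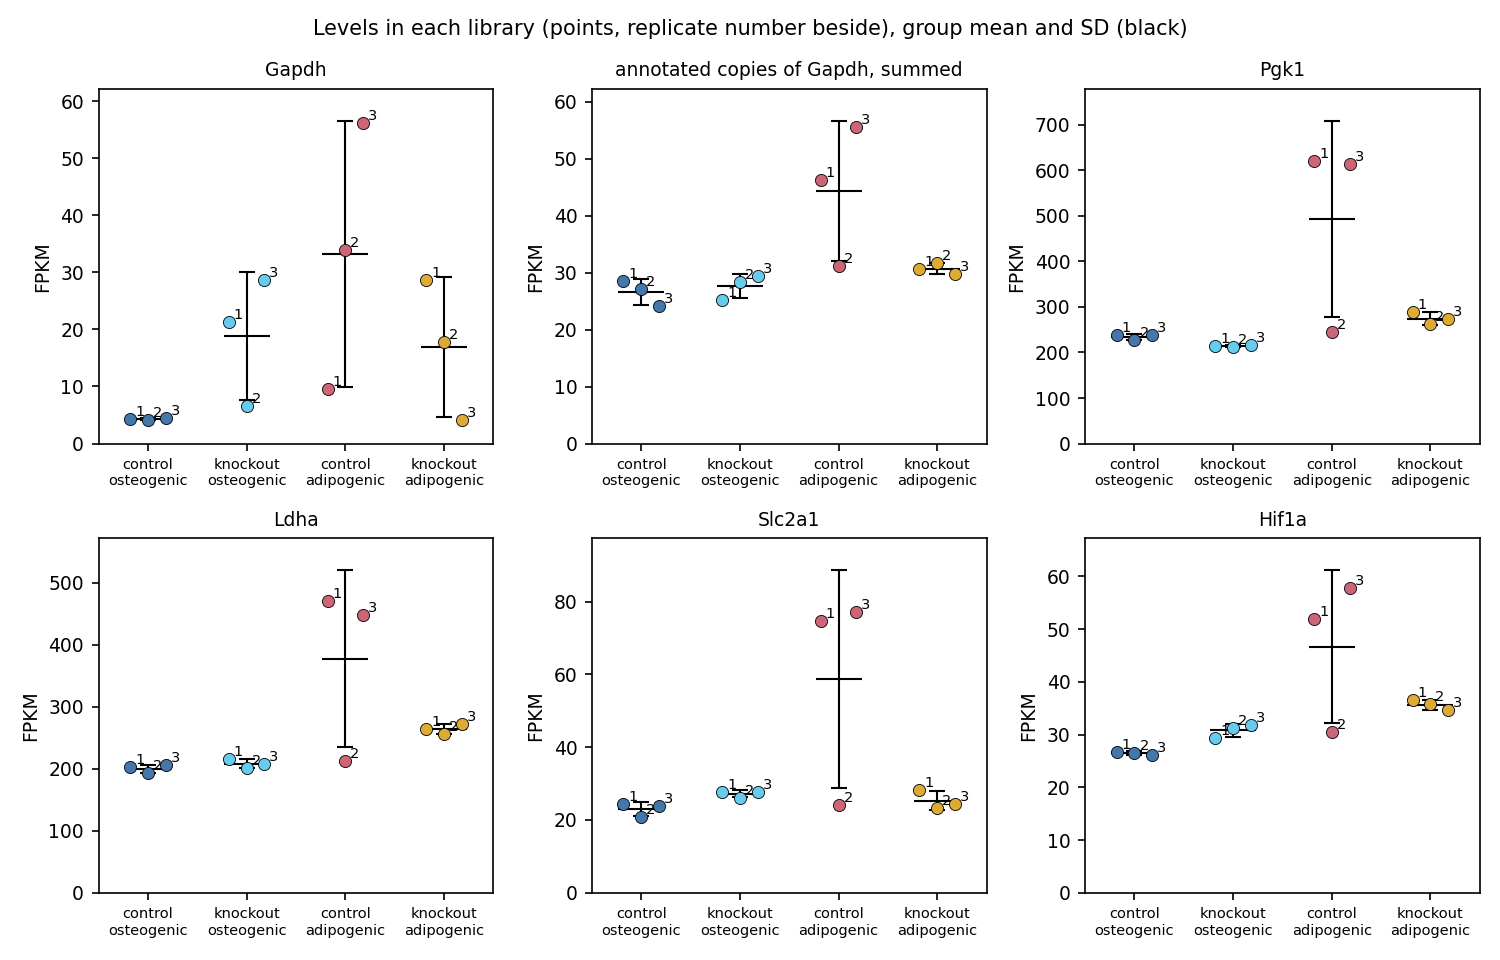
FPKM in each of the 12 libraries (points, with the replicate number) for Gapdh, the summed 67 annotated copies of Gapdh, Pgk1, Ldha, Slc2a1 and Hif1a, with the group mean and SD in black and each vertical axis starting at 0. Gapdh is scattered in 3 of the 4 groups, whereas in the other panels the points of a group lie close together except in control adipogenic cells, where replicate 2 stands below replicates 1 and 3.

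Relative to the spread of the other members, Gapdh stood further apart in osteogenic medium. In osteogenic medium alone its SD was 0.736, exceeded by 0.940% of tested genes, while the other 34 members ranged from 0.0220 to 0.237 with a median of 0.0561. The highest of these 34 was Ankrd37, whose values of 0.358 to 2.37 FPKM rested on as few as 10 fragments. In adipogenic medium the SD of Gapdh was 1.28 and the median of the other members 0.328, with the highest at 0.972 (Slc16a3). Without control adipogenic replicate 2, the SD over all groups was 1.11 for Gapdh, and the median of the other 34 fell to 0.0673, below that of all tested genes at 0.0816. Leaving out that single library thus lowered the median spread of the other members and not the spread of Gapdh. The SD of Adm, Ldhb, Aldoc, Pfkfb4 and Hk3 rose slightly without it.

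The rows of the near-identical copies did not scatter as Gapdh did. Summed over the 67 copies, the level was 28.5, 27.2 and 24.2 FPKM in control osteogenic, 25.2, 28.3 and 29.4 in knockout osteogenic, 46.3, 31.1 and 55.5 in control adipogenic and 30.7, 31.6 and 29.7 in knockout adipogenic libraries. The replicates of a group agreed closely except in control adipogenic cells, where replicates 1 and 3 stood above replicate 2, and the pooled within-group SD of this sum was 0.224. The sum lay between 0.918 and 7.11 times the level of Gapdh itself, so that in 10 of the 12 libraries the copies together were listed above the gene. Only 6 of the 67 copies reached 1 FPKM in at least 3 libraries, and in 5 of these 6 control adipogenic replicates 1 and 3 exceeded the other 4 adipogenic libraries. Gm5559, for example, was listed at 5.83, 4.63 and 6.55 FPKM in control osteogenic, 5.44, 6.45 and 4.55 in knockout osteogenic, 10.7, 5.05 and 10.3 in control adipogenic and 5.37, 6.56 and 5.51 in knockout adipogenic libraries. The exception among the 6 was Gm7336, which had the highest mean level of all copies. It was listed at 8.55, 8.26 and 2.80 FPKM in control osteogenic and 4.93, 7.63 and 7.80 in knockout osteogenic libraries. In adipogenic medium it stood at 6.67, 9.58 and 14.1 in control and 8.21, 8.48 and 8.37 in knockout libraries. How reads that fit both Gapdh and a copy were shared out is not given in the sources used here, and the part of these copies in the level or spread of Gapdh was not tested. Gapdh also overlaps Iffo1 on the opposite strand, which was listed at no more than 9.40 FPKM.

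Members with much shared sequence differed in their spread between replicates. Pgk1 shared 67.0% of its 100-base windows with other annotated genes and Eno1, an enolase, 59.0%, yet their within-group SDs in osteogenic medium were 0.0265 and 0.0401. The number and level of the copies differed. The copies of Pgk1 numbered 2 and summed to 0.00449 to 0.00777 times its own level, and the 3 copies of Eno1 to 0.581 to 0.634 times. The Eno1 row and that of its near-identical copy Eno1b, at 96.7 FPKM on average, are therefore uncertain as separate values. Pgam1 shared 39.7% of its windows and Bnip3 33.5%, and Aldoa and Slc16a3 shared none. The part of shared sequence in these spreads was not tested.

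**Figure D2:**
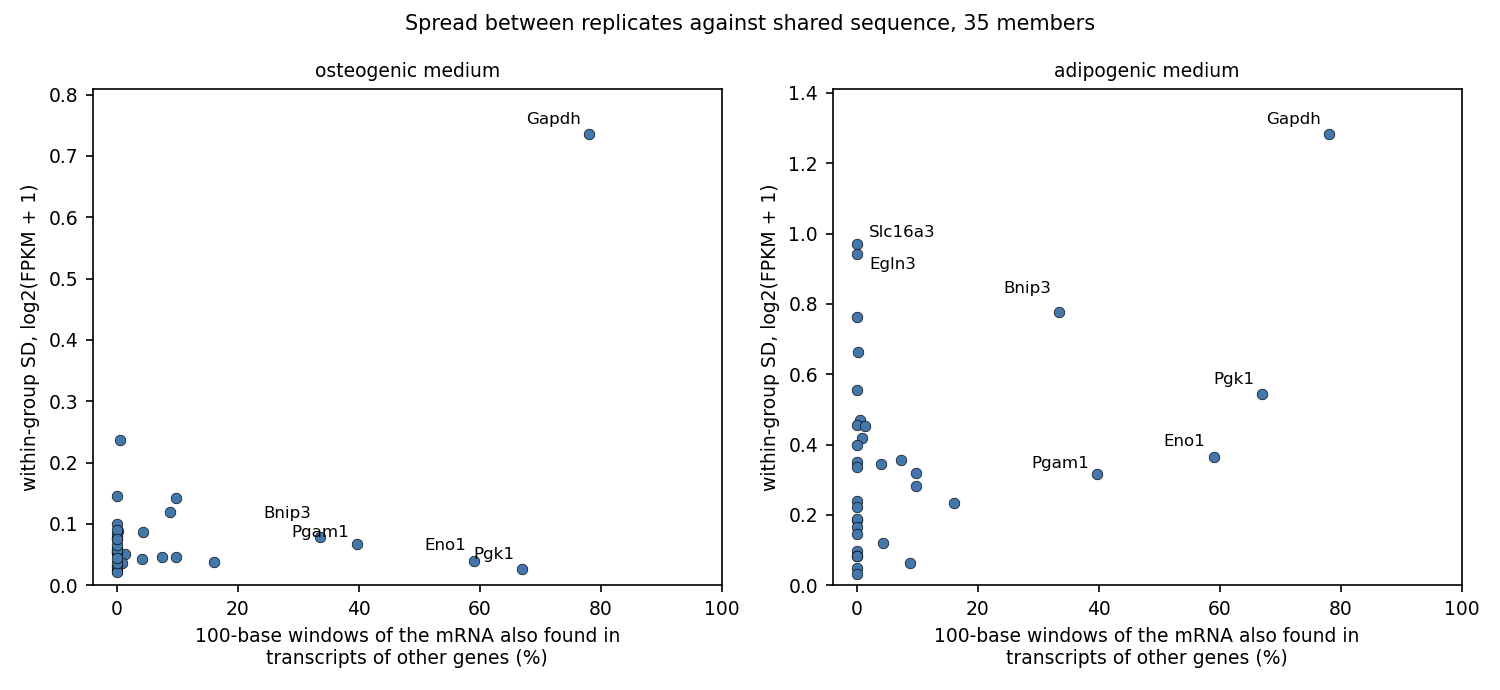
Pooled within-group SD of log2(FPKM + 1) (vertical axis) against the percentage of 100-base windows of the mRNA that also occur in transcripts of other genes (horizontal axis), with 1 point for each of the 35 members, in osteogenic (left) and adipogenic (right) medium. Gapdh stands above all other members in both panels. Pgk1 and Eno1, with 67.0% and 59.0% of their windows shared, have small SDs in osteogenic medium and larger SDs in adipogenic medium.

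No other member was found to follow Gapdh from library to library. In a limma model with a mean for each group and a slope on the log2 level of Gapdh, 0 of the other 34 members and 0 of the 12870 other genes had a positive slope at an adjusted p under 0.05, which is a background of 0%. Because this fit called 0 genes of any kind, its adjusted count alone decides nothing about the members. At an unadjusted p under 0.05, 0 members had a positive slope and 1, Hk3, a negative slope, beside 86 and 130 of all genes. The slopes of the 34 members had a median of -0.03 and ran from -0.16 to 0.06 log2 units per log2 unit of Gapdh, and that of Pgk1 was -0.0430 (SE 0.122). The deviations of the members from their group means correlated with those of Gapdh over the 12 libraries at a median r of -0.119 and a range of -0.783 to 0.381, with 5 of the 34 above 0. The sign of this median depended on single libraries. It was 0.186, with 26 above 0, without the 2 libraries farthest from the median of Gapdh. Without control adipogenic replicate 2 it was 0.0507, with 19 above 0. For Pgk1 the values were r = -0.117 (exact permutation within groups, 2-sided, p = 0.873, adjusted p = 1.00) and Spearman's rho = 0.168 (exact permutation p = 0.654, adjusted p = 1.00), and r = 0.186 without the 2 libraries farthest from the median of Gapdh. For Hk3, a hexokinase of blood and immune cells and the member with the largest size of r, r was -0.783 (exact permutation p = 0.0378) and rho -0.846 (exact permutation p = 0.0154), with adjusted p = 1.00 over all 12870 genes. The r of Hk3 without those 2 libraries was -0.742.

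**Figure D3:**
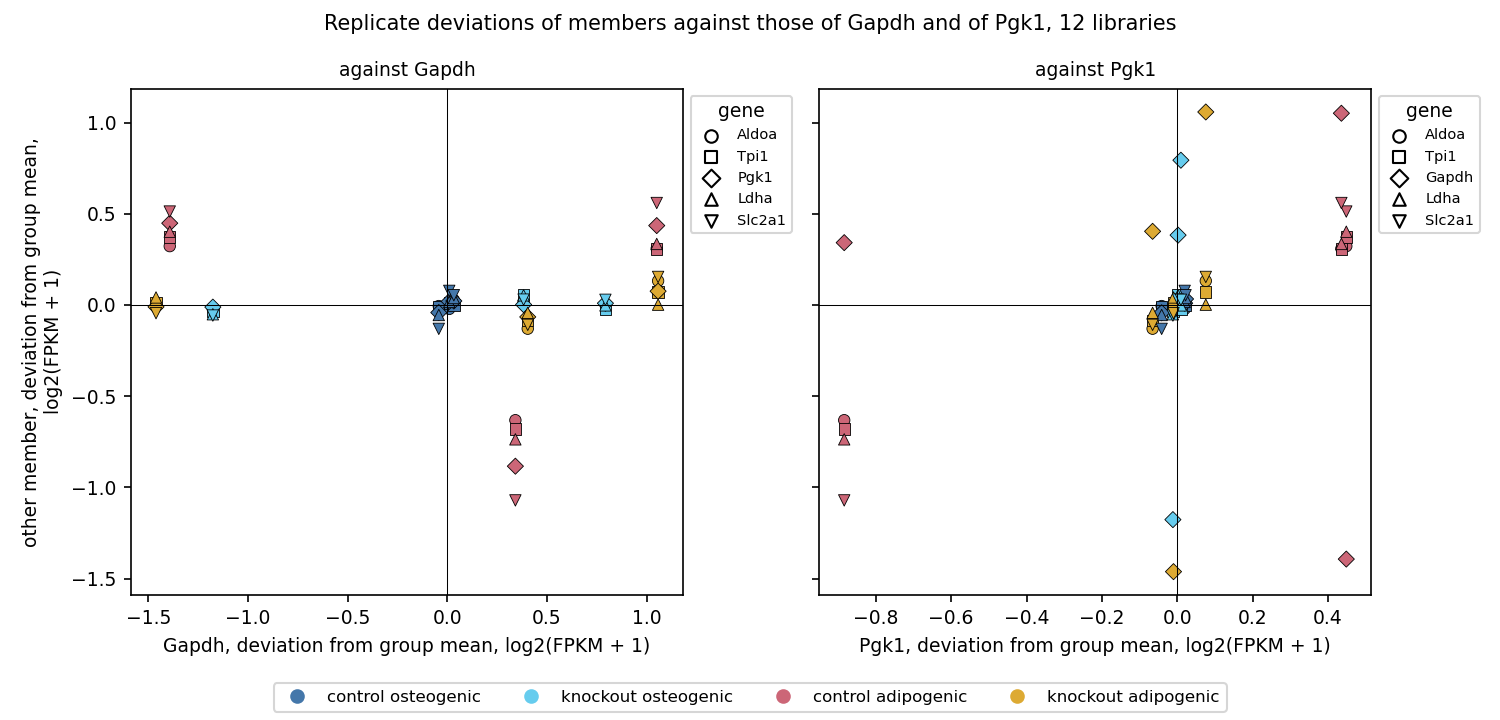
Deviation of each library from its group mean in log2(FPKM + 1) for Aldoa, Tpi1, Pgk1 or Gapdh, Ldha and Slc2a1 (vertical axis, symbols by gene and colours by group), plotted against the deviation of Gapdh (left) and of Pgk1 (right). Other than Gapdh, the members drawn follow Pgk1 more closely than they follow Gapdh, and the points far from 0 on the right-hand panel all belong to control adipogenic cells, except for those of Gapdh.

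The genes most like Gapdh in this respect were not glycolytic. The 5 highest r to its deviations belonged to Gm21297, a processed pseudogene (0.934), Snapc4 (0.914), Chd1l (0.904), Tcea2 (0.889) and Aasdhppt (0.872). After adjustment over all genes each of these had an exact permutation p of 1, which decides nothing here, since a single gene cannot pass that adjustment. All 5 were listed at 6.82 FPKM or less in every library. A different group of members did move together. When the same model was fitted with Pgk1 in place of Gapdh, a fit chosen after the levels were seen, 22 of 34 members had a positive slope against a background of 19.6% of all genes, and 2 had a negative slope. Without control adipogenic replicate 2 the count was 0 of 34, against 0.00777% of all genes, and with the osteogenic libraries alone it was again 0. At an unadjusted p under 0.05, 10 members (29.4%) had a positive slope without that library, beside 7.95% of all genes. Of these 10, Eno2 had a negative slope with it. The adjusted calls of a shared movement therefore rested on control adipogenic replicate 2.

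Reference genes gave a scale for these spreads. Their pooled within-group SDs over the 9 genes used had a median of 0.0525 and a highest value of 0.315 (B2m), against 1.05 for Gapdh. Rplp0, a ribosomal stalk protein, was listed at 693 to 989 FPKM with an SD of 0.0331. A small difference was called in both media, with knockout above control by 0.17 (SE 0.04, adjusted p = 0.0370) in osteogenic and 0.25 (SE 0.04, adjusted p = 0.00152) in adipogenic medium. Gusb, a lysosomal glucuronidase, was called in opposite directions, at -0.34 (SE 0.05, adjusted p = 0.00255) in osteogenic and 0.17 (SE 0.05, adjusted p = 0.0240) in adipogenic medium. Hprt, Actb and Ywhaz were lower in knockout adipogenic libraries, with differences of -0.19, -0.52 and -0.27 on the log2 scale. Tbp, Sdha, Ppia and B2m were not called between genotypes in either medium.

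The Gapdh row itself was not called between genotypes. In osteogenic medium the mean was 4.30 ± 0.142 FPKM (SD, n = 3) in control and 18.9 ± 11.3 in knockout cells, and the groups did not overlap. The difference was 1.69 (SE 0.76, adjusted p = 0.215) by limma over all 12 libraries, and the adjusted p was 0.0388 when only the 6 osteogenic libraries entered the fit. In adipogenic medium the means were 33.2 ± 23.3 and 16.9 ± 12.3 FPKM, the groups overlapped, and the difference was -0.95 (SE 0.76, adjusted p = 0.363). Between media, Gapdh was higher in control adipogenic than in control osteogenic libraries by 2.38 (SE 0.76, adjusted p = 0.0482), and this call was lost when any of the 6 libraries other than control adipogenic replicate 1 was left out (adjusted p = 0.0611 without control adipogenic replicate 2). The near-identical copies make each of these differences uncertain.

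Most of the other members shared a pattern in adipogenic medium, which the heat map of all 35 shows. In 25 of the 35 members control adipogenic replicates 1 and 3 both exceeded control replicate 2 and all 3 knockout libraries, as did 26.2% of tested genes, and in 4 members (Slc2a3, Eno2, Ldhb and Adm) both lay below all of those, as did 23.5%. Gapdh was among the 6 that did neither, with Hk1, Hk3, Pfkm, Pfkfb4 and Aldoc. Control replicate 2 fell inside the range of the 3 knockout libraries for 12 members, compared with 28.3% of tested genes. Relative to the control osteogenic mean, the median log2 ratio over the 34 members other than Gapdh was 0.811 and 0.829 in control adipogenic replicates 1 and 3, 0.0599 in replicate 2 and between 0.00264 and 0.188 in the knockout adipogenic libraries. The macrophage marker sum moved with this pattern, at 19265 and 19276 FPKM in replicates 1 and 3 and 9543 in replicate 2. Such a sum follows its most abundant markers, and single macrophage markers differed between genotypes in both directions (given with Hk3 below). The sum of the 6 markers of cycling cells moved the other way, at 62.3, 61.5 and 111 FPKM in replicates 1, 3 and 2. The sum of the 6 osteoblast markers was 64.6 and 57.5 FPKM in replicates 1 and 3, 33.3 in replicate 2 and 37.4 to 46.3 in knockout adipogenic libraries. Genes of the mitochondrial chromosome held 3.65% and 3.95% of the summed FPKM in replicates 1 and 3, 4.78% in replicate 2 and 4.16% to 4.51% in knockout adipogenic libraries. The part of any of these in the member levels was not tested.

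**Figure D4:**
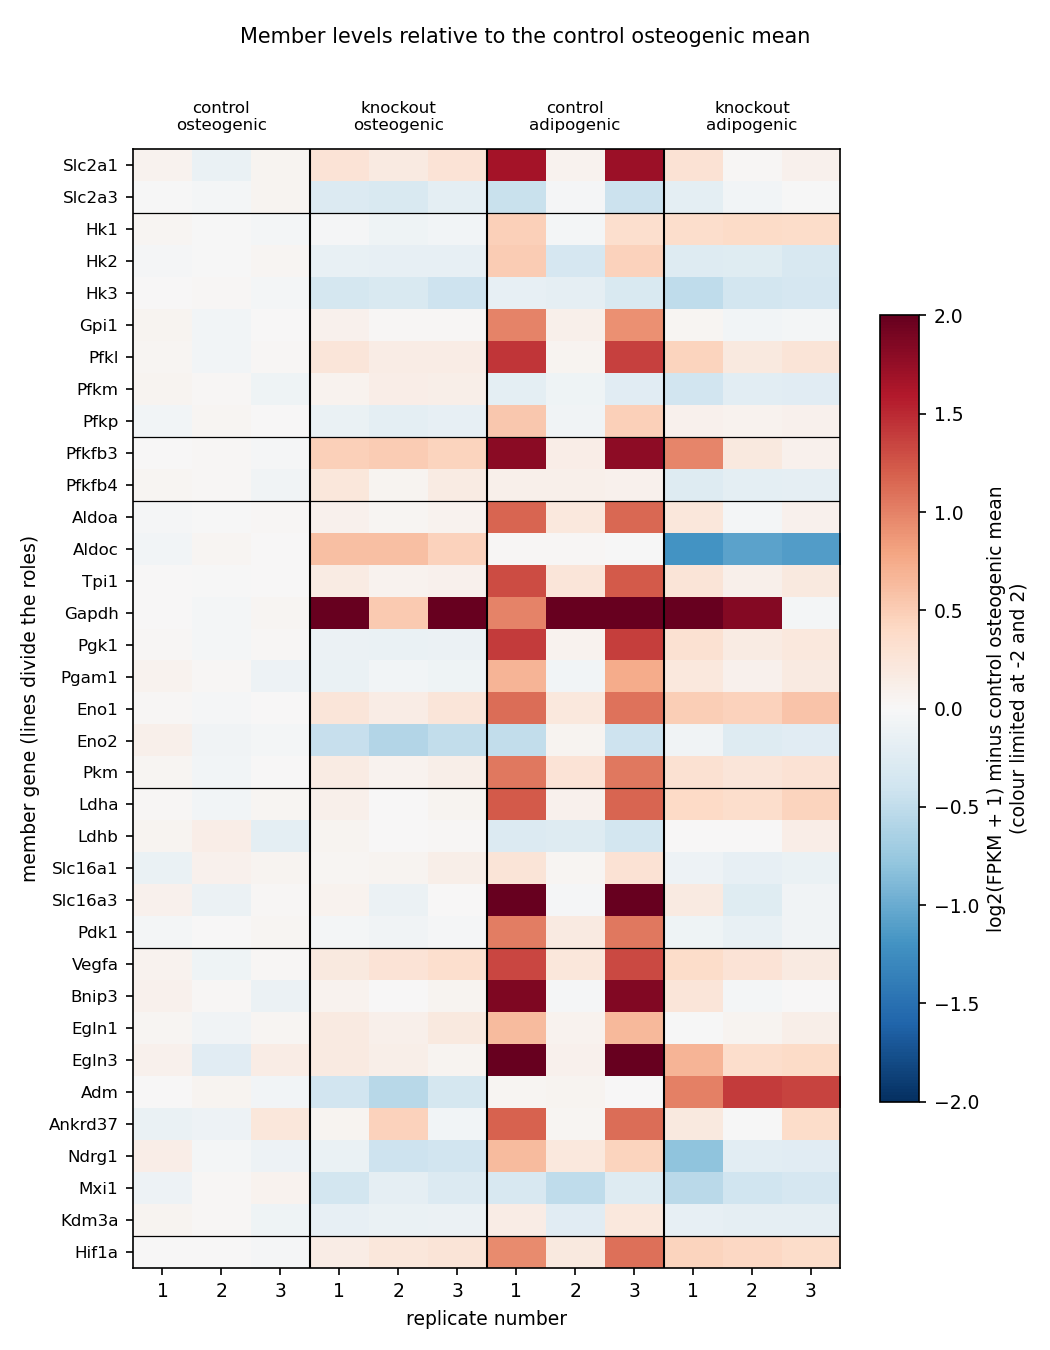
Log2(FPKM + 1) of each of the 35 members (rows, divided by role) in each of the 12 libraries (columns) minus the mean of the control osteogenic libraries, with colour limited to between -2 and 2. Control adipogenic replicates 1 and 3 are red for most members, replicate 2 of that group is near white for most, and the Gapdh row is high in 1 or more libraries of 3 groups.

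Before the comparisons, the promoters of a few members are shown, since genes that respond to HIF-1 carry its binding core, ACGTG or GCGTG, near their start. RefSeq promoter sequences on GRCm38.p6 were matched for 33 of the 35 members, with 51 starts among them, and the 250 bases before each start were searched on both strands for these 5-letter words. A CACGTG holds ACGTG on both strands, where the matches overlap. At least 1 match of either word lay in 39 of the 51 windows (76.5%), beside 38.6% of all 32851 promoters and 55.9% of those of tested genes, and ACGTG itself in 45.1%, beside 16.6% and 21.8%. Counted by gene, 30 of the 33 members had a match, beside 61.8% of tested genes. The windows below run 5′ to 3′ on the strand of the gene, with matches in capitals. They are given for Pgk1, Ldha and Bnip3, which were high together in control adipogenic replicates 1 and 3, and for Gapdh and Adm, which were not.
Pgk1 (chrX:106186850-106187099, plus strand): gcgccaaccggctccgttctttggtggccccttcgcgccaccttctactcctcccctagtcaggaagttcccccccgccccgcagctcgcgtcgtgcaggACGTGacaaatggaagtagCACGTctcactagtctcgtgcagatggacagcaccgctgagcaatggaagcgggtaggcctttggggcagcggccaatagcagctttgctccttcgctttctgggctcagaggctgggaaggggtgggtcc
Ldha (chr7:46845554-46845803, plus strand): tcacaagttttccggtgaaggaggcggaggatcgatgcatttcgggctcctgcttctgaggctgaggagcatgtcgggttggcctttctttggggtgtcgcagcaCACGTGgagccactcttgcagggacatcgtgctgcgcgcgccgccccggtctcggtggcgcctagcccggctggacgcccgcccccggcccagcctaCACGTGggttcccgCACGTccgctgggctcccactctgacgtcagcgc
Bnip3 (chr7:138909507-138909756, minus strand): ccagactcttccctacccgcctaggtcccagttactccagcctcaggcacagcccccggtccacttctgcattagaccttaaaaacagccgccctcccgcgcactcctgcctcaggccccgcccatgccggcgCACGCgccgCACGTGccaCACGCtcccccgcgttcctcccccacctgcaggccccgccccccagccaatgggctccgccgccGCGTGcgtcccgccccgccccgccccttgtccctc
Gapdh (chr6:125165774-125166023, minus strand): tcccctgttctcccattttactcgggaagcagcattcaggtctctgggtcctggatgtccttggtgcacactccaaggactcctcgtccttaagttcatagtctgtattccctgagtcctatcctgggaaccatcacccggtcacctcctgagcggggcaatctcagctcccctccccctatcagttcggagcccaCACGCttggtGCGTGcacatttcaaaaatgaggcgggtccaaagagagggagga
Adm (chr7:110627407-110627656, plus strand): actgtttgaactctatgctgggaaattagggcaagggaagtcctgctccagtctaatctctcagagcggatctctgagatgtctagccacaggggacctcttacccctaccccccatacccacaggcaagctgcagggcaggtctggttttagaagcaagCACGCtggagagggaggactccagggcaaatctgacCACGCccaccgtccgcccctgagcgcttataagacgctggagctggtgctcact
The windows shown of Pgk1, Ldha and Bnip3 hold ACGTG, and those of Gapdh and Adm hold only GCGTG. The second start of Ldha holds no ACGTG. Of the 24 matched members whose control adipogenic replicates 1 and 3 lay above the other 4 adipogenic libraries, 17 held ACGTG before at least 1 start, and Eno1, Gpi1, Kdm3a, Pdk1, Pfkl, Pfkp and Tpi1 did not. Of the 9 others, Hk3 and Pfkm held it. Over all 33 matched members 57.6% held ACGTG before at least 1 start, beside 25.5% of tested genes. Members also had more starts per gene, with 51 for 33 members and 11602 for 9091 tested genes. The share among all genes with the same pattern was not counted, and a link between the word and the pattern was not tested. A match is a description of the letters and shows no binding. Ndrg1 and Slc2a3 were not matched.

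Between genotypes in adipogenic medium, 30 members lay lower in knockout than in control libraries and 15 were called lower. The size of these differences depended on control replicate 2. With all libraries, 17 of the 35 members passed an adjusted p under 0.05, 2 higher and 15 lower in knockout, against a background of 33.2% of tested genes (16.7% higher and 16.5% lower). The median difference over the 35 members was -0.49 on the log2(FPKM + 1) scale, and over all tested genes it was -0.01. Without control replicate 2, 31 members passed, 4 higher and 27 lower, against 51% of genes (24.3% higher and 26.8% lower), and the median was -0.78. Of the 17 calls, 7 (Adm, Aldoc, Ldhb, Ndrg1, Pdk1, Pfkfb4 and Slc16a1) held when any 1 of the 6 adipogenic libraries was left out. The groups did not overlap for 9 members, 2 higher and 7 lower, against 38.6% of genes (20.2% higher and 18.4% lower). Scaling every library to the same FPKM sum moved the median of all genes by 0.16. With it 12 members were called, 3 higher and 9 lower, beside 4162 calls among all genes. With only the 6 adipogenic libraries in the fit 5 passed, against 13% of genes.

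**Figure D5:**
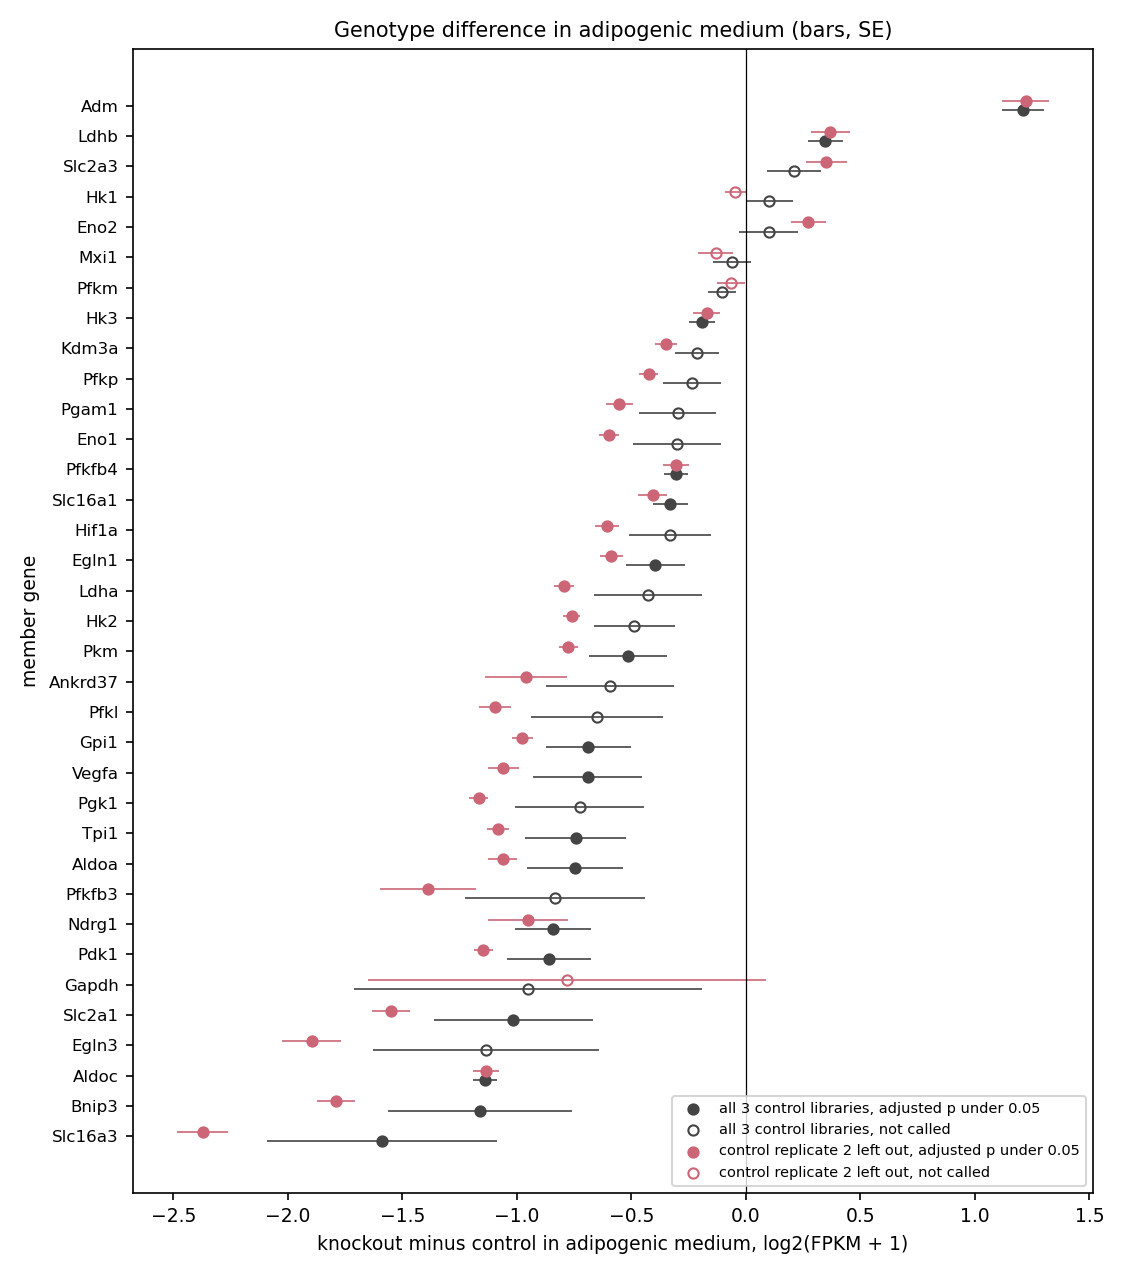
Difference between knockout and control in adipogenic medium on the log2(FPKM + 1) scale for each of the 35 members (points, with SE bars), with all 3 control libraries (dark grey) and with control replicate 2 left out (red), filled where the adjusted p was under 0.05. Leaving out replicate 2 moves most members further below 0 and shortens their bars, whereas Adm, Aldoc, Pfkfb4 and Hk3 hardly move and Gapdh keeps its wide bars.

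In osteogenic medium few members were called between genotypes. With all 12 libraries in the fit, 4 of 35 passed, 1 higher (Aldoc) and 3 lower (Hk3, Eno2 and Adm), against 9.09% of tested genes (4.94% higher and 4.15% lower), and the median over members was 0.06. Aldoc and Hk3 kept their calls whichever osteogenic library was left out, and Eno2 lost its call in each case. The count depended on which libraries shared the estimate of the spread. With only the 6 osteogenic libraries, 16 members passed, 9 higher and 7 lower, against 26.6% of genes (13% higher and 13.5% lower), and without control adipogenic replicate 2, 16 passed, 7 higher and 9 lower, against 22.2% (11.4% higher and 10.8% lower). Groups did not overlap for 24 members, 14 higher and 10 lower, against 44.3% of tested genes (21% higher and 23.2% lower). The macrophage marker sum was higher in every knockout than in every control osteogenic library, although 9 of its 12 markers lay below 0, with a median of -0.13, 1 called higher and 2 lower (2 higher and 7 lower with only the osteogenic libraries). The 6 markers of cycling cells summed to 101 to 105 FPKM in knockout and 76.6 to 84.8 in control osteogenic libraries, and the 5 endothelial markers to 5.61 to 6.39 and 2.27 to 2.50. The part of any of these in the differences was not tested.

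Between media, most members that were called in control cells were higher in adipogenic medium. In control cells 19 members passed, 16 higher and 3 lower in adipogenic medium, against 22.8% of tested genes (10.5% higher and 12.3% lower), and 31 passed without replicate 2, 25 higher and 6 lower, against 47.8% (24.5% higher and 23.3% lower). The groups did not overlap for 16 higher and 4 lower members, against 16.2% and 18.3% of genes. With only the 6 control libraries in the limma fit 0 members passed, against 3.81% of genes, and 21 had an unadjusted p under 0.05, beside 27.6% of all genes. Pkm alone held its call whichever library of the comparison was left out. In knockout cells 5 members passed, 2 higher (Adm and Hk1) and 3 lower (Aldoc, Pfkm and Pfkfb4), against 27.9% (13.9% higher and 14% lower). With only the knockout libraries in the fit 16 passed, 11 higher and 5 lower, against 37.4% (18.2% higher and 19.1% lower), and without control adipogenic replicate 2 also 16, 11 higher and 5 lower, against 42.5% (20.7% higher and 21.8% lower). Their groups did not overlap for 11 higher and 6 lower members, against 26% and 26.5% of genes. The median member difference was 0.67 in control and 0.01 in knockout cells. The difference between the genotype effects in the 2 media (the interaction) was called for 5 members, positive for Adm and Eno2 and negative for Aldoc, Pfkfb4 and Slc16a1, against 20.4% of tested genes (10.9% positive and 9.58% negative). Without control adipogenic replicate 2 it was called for 29, 4 positive and 25 negative, against 42.2% (19.7% positive and 22.5% negative). The control groups are shared between these comparisons, so they are not independent of each other.

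Glucose enters through transporters, of which Slc2a1, the widely expressed GLUT1, was the more abundant of the 2 members. Its level was 24.3, 20.9 and 23.9 FPKM in control osteogenic, 27.8, 26.1 and 27.8 in knockout osteogenic, 74.7, 24.2 and 77.2 in control adipogenic and 28.2, 23.3 and 24.4 in knockout adipogenic libraries. Control adipogenic replicates 1 and 3 stood above every other library and replicate 2 among the knockout libraries, so the groups overlapped. The genotype difference in adipogenic medium was -1.01 (SE 0.35, adjusted p = 0.0458), and -1.55 (SE 0.08, adjusted p = 5.98e-07) without replicate 2, where replicates 1 and 3 had 3.13 times the level of replicate 2. With the full set this call was lost when any other adipogenic library was left out. In osteogenic medium the difference was 0.24 (SE 0.35, adjusted p = 0.751). Slc2a3, the high-affinity GLUT3, lay between 0.529 and 1.16 FPKM and had the opposite pattern, at 0.35 (SE 0.09, adjusted p = 0.00903) in adipogenic medium without replicate 2 and 0.21 (SE 0.12, adjusted p = 0.192) with it.

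The steps from glucose to fructose bisphosphate are run by hexokinases, the isomerase Gpi1 and phosphofructokinases. Of these 7 genes 2 were called lower and 0 higher in knockout adipogenic libraries, against 16.5% and 16.7% of tested genes, and 6 lay below 0. Hk3 was the most expressed hexokinase, at 97.2, 97.8 and 93.8 FPKM in control osteogenic, 75.3, 77.5 and 71.9 in knockout osteogenic, 85.3, 85.1 and 77.9 in control adipogenic and 67.3, 74.1 and 75.9 in knockout adipogenic libraries. It was lower in knockout cells in both media, with differences of -0.36 (SE 0.06, adjusted p = 0.00395) in osteogenic and -0.19 (SE 0.06, adjusted p = 0.0268) in adipogenic medium, the second of which was lost without control replicate 1 or knockout replicate 1. Hk3 is a myeloid gene, and most macrophage markers lay on the same side, with 9 of 12 below 0 in osteogenic medium (1 called higher and 2 lower) and 8 of 12 below 0 in adipogenic medium (2 called higher and 7 lower). The part of such cells in the level of Hk3 was not tested. Hk1, the hexokinase of most tissues, was listed at 17.5, 16.7 and 16.5 FPKM in control osteogenic, 16.6, 15.9 and 16.3 in knockout osteogenic, 23.9, 16.4 and 21.6 in control adipogenic and 21.7, 22.2 and 22.1 in knockout adipogenic libraries, higher in adipogenic than in osteogenic medium in knockout cells by 0.41 (SE 0.10, adjusted p = 0.0143), with no overlap between the groups, a call lost without knockout osteogenic replicate 2. Hk2, the inducible hexokinase, ranged from 20.3 to 37.3 FPKM and was not called in adipogenic medium, at -0.49 (SE 0.18, adjusted p = 0.0566), but was called without replicate 2, at -0.76 (SE 0.04, adjusted p = 3.57e-07).

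Gpi1 fell in knockout adipogenic libraries, with a difference of -0.69 (SE 0.19, adjusted p = 0.0186), from 86.2 ± 26.9 to 51.2 ± 1.97 FPKM (SD, n = 3), and its groups did not overlap. The call was lost without control replicate 1 or 3 or knockout replicate 2 or 3, and the difference was -0.98 (SE 0.05, adjusted p = 3.25e-07) without control replicate 2. Among the phosphofructokinases, Pfkl of liver type ranged from 19.1 to 55.4 FPKM and Pfkp of platelet type from 5.23 to 9.35, and neither was called between genotypes with all libraries. The Pfkp row overlaps Pitrm1 on the opposite strand, with which 16.0% of its windows were shared. Pfkm of muscle type was listed at 8.06, 7.91 and 7.22 FPKM in control osteogenic, 8.17, 8.61 and 8.45 in knockout osteogenic, 6.60, 7.20 and 6.49 in control adipogenic and 5.69, 6.51 and 6.47 in knockout adipogenic libraries. It was lower in adipogenic than in osteogenic medium in knockout cells, with a difference of -0.38 (SE 0.06, adjusted p = 0.00145), and its replicates stayed together in every group, control adipogenic included.

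Pfkfb3 and Pfkfb4 make fructose 2,6-bisphosphate, the activator of phosphofructokinase, and they gave different patterns. Pfkfb3 was listed at 7.54, 7.58 and 7.35 FPKM in control osteogenic, 10.9, 11.1 and 10.5 in knockout osteogenic, 28.8, 8.35 and 28.5 in control adipogenic and 15.7, 8.69 and 7.97 in knockout adipogenic libraries. Control adipogenic replicates 1 and 3 and, less so, knockout adipogenic replicate 1 were high. It was higher in adipogenic than osteogenic medium in control cells, by 1.25 (SE 0.39, adjusted p = 0.0460), a call lost without any library of the comparison other than control adipogenic replicate 2, and by 1.80 (SE 0.21, adjusted p = 8.48e-05) without that one. The genotype difference in adipogenic medium was not called with all libraries (-0.83, SE 0.39, adjusted p = 0.129). Pfkfb4 had instead the values 9.93, 9.83 and 9.13 FPKM in control osteogenic, 11.5, 10.0 and 10.8 in knockout osteogenic, 10.4, 10.4 and 10.3 in control adipogenic and 7.89, 8.30 and 8.41 in knockout adipogenic libraries. Here the 3 control adipogenic libraries lay close together and above all 3 knockout libraries. The difference was -0.31 (SE 0.05, adjusted p = 0.00180), it was -0.31 without replicate 2, and the interaction with medium was -0.45 (SE 0.07, adjusted p = 0.00242).

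In the lower part of the chain 4 of 9 genes were called lower and 0 higher in knockout adipogenic libraries, against 16.5% and 16.7% of tested genes. Aldoa, the main aldolase, ranged from 333 to 765 FPKM and Pkm, the pyruvate kinase, from 426 to 922, which made them the most abundant members per length. The differences were -0.75 (SE 0.21, adjusted p = 0.0205) for Aldoa, -0.52 (SE 0.17, adjusted p = 0.0405) for Pkm and -0.74 (SE 0.22, adjusted p = 0.0264) for Tpi1. None of these 3 calls held whichever library was left out, and the groups overlapped for all 3. Without control replicate 2 the differences were -1.06 (SE 0.06, adjusted p = 1.11e-06) for Aldoa, -0.78 (SE 0.04, adjusted p = 5.75e-07) for Pkm and -1.08 (SE 0.05, adjusted p = 2.50e-07) for Tpi1. Pgk1 had the values 237, 227 and 238 FPKM in control osteogenic, 215, 213 and 216 in knockout osteogenic, 620.2, 246 and 615 in control adipogenic and 289, 262 and 273 in knockout adipogenic libraries. Its control adipogenic replicates 1 and 3 had 2.51 times the level of replicate 2 and 2.25 times the knockout mean. The genotype difference was -0.72 (SE 0.28, adjusted p = 0.0722) with all libraries and -1.17 (SE 0.04, adjusted p = 9.84e-08) without replicate 2.

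Pgk1 also showed how tight the osteogenic groups were. The control osteogenic libraries had 234 ± 5.82 and the knockout 215 ± 1.61 FPKM (SD, n = 3), without overlap, and the difference of -0.12 had an adjusted p of 0.853 in the fit over all libraries and 0.0175 over the osteogenic libraries alone. Pgam1, the mutase of the following step, ranged from 222 to 409.7 FPKM and Eno1 from 145 to 321. Neither was called between genotypes in adipogenic medium with all libraries, and without replicate 2 they were at -0.55 (SE 0.06, adjusted p = 3.81e-05) and -0.60 (SE 0.04, adjusted p = 3.07e-06).

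Aldoc, the brain-type aldolase, differed between genotypes in both media, whichever library was left out. Its level was 9.45, 10.1 and 9.90 FPKM in control osteogenic, 15.4, 15.4 and 13.9 in knockout osteogenic, 10.0, 9.97 and 9.78 in control adipogenic and 3.72, 4.18 and 4.00 in knockout adipogenic libraries. All 3 knockout osteogenic libraries lay above, and all 3 knockout adipogenic libraries below, every control library. The genotype difference was 0.55 (SE 0.05, adjusted p = 0.000260) in osteogenic and -1.14 (SE 0.05, adjusted p = 7.14e-07) in adipogenic medium, and the interaction was -1.69 (SE 0.07, adjusted p = 1.15e-06). Both control groups were alike, at 9.82 ± 0.343 and 9.93 ± 0.132 FPKM, with a difference of 0.01 (SE 0.05, adjusted p = 0.866). In knockout cells the level in adipogenic medium was lower, with a difference of -1.68 (SE 0.05, adjusted p = 7.94e-08). Control adipogenic replicate 2 had the level of both control groups here, so Aldoc cannot show to which it belongs. Eno2, the neuronal enolase, was low throughout, at 4.22, 3.62 and 3.72 FPKM in control osteogenic, 2.52, 2.24 and 2.43 in knockout osteogenic, 2.43, 4.05 and 2.64 in control adipogenic and 3.61, 3.06 and 3.15 in knockout adipogenic libraries. It was lower in knockout than in control osteogenic libraries, with a difference of -0.51 (SE 0.13, adjusted p = 0.0348), and the interaction was 0.61 (SE 0.18, adjusted p = 0.0388), with its lowest adipogenic values in control replicates 1 and 3.

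Of the 5 members for lactate and pyruvate, 1 was called higher and 3 lower in knockout adipogenic libraries, against 16.7% and 16.5% of tested genes. Slc16a3, the lactate exporter MCT4, was listed at 12.4, 10.7 and 11.9 FPKM in control osteogenic, 12.2, 10.6 and 11.7 in knockout osteogenic, 63.5, 11.4 and 61.4 in control adipogenic and 13.4, 9.65 and 11.0 in knockout adipogenic libraries. Control adipogenic replicates 1 and 3 had 5.46 times the level of replicate 2, and the other 10 libraries lay between 9.65 and 13.4 FPKM. In adipogenic medium the difference was -1.59 (SE 0.50, adjusted p = 0.0349), and -2.37 (SE 0.11, adjusted p = 3.20e-07) without replicate 2. Leaving out any adipogenic library other than control replicate 2 ended the call. Ldha, which makes lactate, followed with 202, 193 and 206 FPKM in control osteogenic, 216, 201 and 208 in knockout osteogenic, 470.3, 213 and 449 in control adipogenic and 265, 257 and 272 in knockout adipogenic libraries. It was not called between genotypes in adipogenic medium (-0.43, SE 0.24, adjusted p = 0.190) unless replicate 2 was left out (-0.79, SE 0.05, adjusted p = 9.40e-07).

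The other 3 members of this step were called in adipogenic medium whichever library was left out. Pdk1, the kinase that shuts pyruvate out of the mitochondrial dehydrogenase, was listed at 6.04, 6.24 and 6.38 FPKM in control osteogenic, 6.03, 5.84 and 6.11 in knockout osteogenic, 13.7, 7.22 and 14.0 in control adipogenic and 5.80, 5.49 and 5.86 in knockout adipogenic libraries. Every control adipogenic library, replicate 2 included, lay above every knockout adipogenic library, and the difference was -0.86 (SE 0.18, adjusted p = 0.00603). Slc16a1, the carrier MCT1, had 4.90, 5.86 and 5.74 FPKM in control osteogenic, 5.65, 5.75 and 6.04 in knockout osteogenic, 6.75, 5.69 and 6.93 in control adipogenic and 5.02, 4.78 and 4.95 in knockout adipogenic libraries, lower in knockout adipogenic libraries with a difference of -0.33 (SE 0.08, adjusted p = 0.00855) and with an interaction of -0.40 (SE 0.11, adjusted p = 0.0265). The groups did not overlap in adipogenic medium and did in osteogenic medium. Ldhb, the heart-type lactate dehydrogenase, was higher in the knockout. It rose from 15.4 ± 0.646 to 19.9 ± 1.03 FPKM (SD, n = 3), by 0.35 (SE 0.08, adjusted p = 0.00686).

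Among the 9 hypoxia-induced genes outside glycolysis, 1 was called higher and 4 lower in knockout adipogenic libraries, against 16.7% and 16.5% of tested genes. Vegfa, the vascular growth factor, was listed at 20.6, 18.3 and 19.9 FPKM in control osteogenic, 22.6, 23.9 and 24.9 in knockout osteogenic, 51.2, 23.1 and 50.1 in control adipogenic and 25.5, 23.8 and 22.2 in knockout adipogenic libraries. It followed the pattern of Pgk1, with a difference of -0.69 (SE 0.24, adjusted p = 0.0485) that was lost without any adipogenic library other than control replicate 2, and of -1.06 (SE 0.07, adjusted p = 1.51e-06) without that one. Bnip3, a mitophagy receptor, had 9.91, 9.40 and 8.42 FPKM in control osteogenic, 9.76, 9.32 and 9.62 in knockout osteogenic, 36.3, 9.03 and 35.8 in control adipogenic and 11.0, 8.90 and 9.32 in knockout adipogenic libraries. Control adipogenic replicates 1 and 3 had 3.99 times the level of replicate 2, and the call of -1.16 (SE 0.40, adjusted p = 0.0491) was lost without any of the other 5 adipogenic libraries, and the difference was -1.79 (SE 0.08, adjusted p = 2.98e-07) without replicate 2. Egln3, a HIF prolyl hydroxylase that HIF itself induces, rose from 1.09 ± 0.274 in control osteogenic to 6.88 ± 4.96 FPKM in control adipogenic libraries, by 1.60 (SE 0.49, adjusted p = 0.0421).

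The single Egln3 values were 1.20, 0.782 and 1.30 FPKM in control osteogenic, 1.36, 1.27 and 1.16 in knockout osteogenic, 9.10, 1.20 and 10.3 in control adipogenic and 2.32, 1.65 and 1.70 in knockout adipogenic libraries. Its 2 high libraries had 8.08 times the level of control adipogenic replicate 2, the largest such ratio among the members, and the change between media lost its call when any library other than that replicate was left out and was 2.36 (SE 0.13, adjusted p = 1.04e-06) without it. Egln1, the main prolyl hydroxylase, ranged only from 20.5 to 34.6 FPKM and fell in knockout adipogenic libraries, with a difference of -0.39 (SE 0.13, adjusted p = 0.0409) that was lost without any adipogenic library other than control replicate 2 and of -0.59 (SE 0.05, adjusted p = 1.32e-05) without that one. Ndrg1, a stress-responsive gene, fell by 0.84 (SE 0.17, adjusted p = 0.00412), from 5.43 ± 0.928 to 2.62 ± 0.788 FPKM, with no overlap between the groups. Mxi1, an antagonist of MYC, ranged from 3.70 to 6.15 FPKM and Kdm3a, a histone demethylase, from 5.70 to 8.04, and these and Ankrd37 were not called between genotypes in either medium with all libraries.

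Adm, which encodes the vasodilator peptide adrenomedullin, was the only one of these 9 called higher in the knockout in adipogenic medium. Its level was 17.6, 18.3 and 16.9 FPKM in control osteogenic, 13.2, 11.6 and 13.5 in knockout osteogenic, 18.2, 18.4 and 17.8 in control adipogenic and 36.6, 47.8 and 46.2 in knockout adipogenic libraries. The 3 knockout adipogenic libraries stood above all others, and the 3 knockout osteogenic libraries below all others. The genotype difference was -0.43 (SE 0.09, adjusted p = 0.0168) in osteogenic and 1.21 (SE 0.09, adjusted p = 1.54e-05) in adipogenic medium, and the interaction of 1.65 (SE 0.13, adjusted p = 3.54e-05) held without any 1 of the 12 libraries. The osteogenic call was lost without control replicate 1 or 2 or knockout replicate 2. Both control groups had nearly the same level, at 17.6 ± 0.656 and 18.1 ± 0.293 FPKM. Control adipogenic replicate 2 did not stand apart from either, so Adm cannot show to which it belongs.

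Hif1a, which encodes the oxygen-regulated subunit of HIF-1, was listed at 26.8, 26.6 and 26.1 FPKM in control osteogenic, 29.4, 31.2 and 31.8 in knockout osteogenic, 51.9, 30.4 and 57.8 in control adipogenic and 36.5, 35.7 and 34.6 in knockout adipogenic libraries. It was 0.74 (SE 0.18, adjusted p = 0.0178) higher in adipogenic than in osteogenic medium in control cells, and the call was lost without any library of that comparison other than control adipogenic replicate 2, without which the difference was 1.02 (SE 0.05, adjusted p = 7.04e-07). The genotype difference in adipogenic medium was -0.33 (SE 0.18, adjusted p = 0.183) with all libraries and -0.61 (SE 0.05, adjusted p = 9.91e-06) without replicate 2. In osteogenic medium the knockout libraries all lay above the control libraries, at 30.8 ± 1.27 against 26.5 ± 0.343 FPKM (SD, n = 3), with an adjusted p of 0.553 over all libraries and 0.00692 over the osteogenic libraries alone. HIF-1 is regulated mainly through protein stability, which was not measured.

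Other genes of glucose metabolism, from a list of enzymes and regulators, were called in both directions. Of 36 listed, 24 were tested, and 4 were called higher and 6 lower in knockout adipogenic libraries, with a median of 0.06, against 16.7% and 16.5% of all tested genes, so that these shares were near the background. Pdk4, a pyruvate dehydrogenase kinase induced in fasting, rose by 1.88 (SE 0.25, adjusted p = 0.000409), from 26.5 to 92.6 FPKM, whereas Pdk1 fell. The 6 called lower included 3 that encode enzymes of the pentose phosphate pathway, with Pgd at -1.33 (SE 0.14, adjusted p = 0.000101), G6pdx at -1.03 (SE 0.13, adjusted p = 0.000383) and Taldo1 at -0.86 (SE 0.05, adjusted p = 4.57e-06). Taldo1 was also the only gene of this list called in osteogenic medium, at -0.22 (SE 0.05, adjusted p = 0.0305). Of 25 other hypoxia genes, 21 were tested, and 4 were called higher and 2 lower in knockout adipogenic libraries, with a median of -0.05. Ero1a, an oxidoreductase of the endoplasmic reticulum, had a difference of -1.08 (SE 0.36, adjusted p = 0.0434) and Rbpj, the nuclear effector of Notch, of -0.84 (SE 0.21, adjusted p = 0.0118). Ddit4, an inhibitor of mTORC1, Lox, a lysyl oxidase, and Epas1 rose by 0.78, 0.47 and 0.46. Epas1, which encodes the related factor HIF-2α, was the only gene of this list called in osteogenic medium, at 0.62 (SE 0.14, adjusted p = 0.0243). Between media the first list had 6 genes higher and 2 lower in adipogenic medium in control cells and 4 and 5 in knockout cells, and the second 9 and 2 in control cells and 4 and 1 in knockout cells, against 10.5% higher and 12.3% lower of all tested genes in control cells and 13.9% and 14% in knockout cells.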

How the data were processed

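RNA was sequenced from 12 libraries in 4 groups of 3. The authors made the libraries with a NEBNext Ultra kit and deposited 1 table of FPKM per Ensembl gene. The submitters' processing notes name Bowtie 0.12.2 and mm9, while the study's software list names other tools, so the aligner of this table is not settled, and how reads with several matches were counted is not given in the sources used here. The deposited FPKM were already scaled so that the median ratio between libraries was 1.00, and their low values were whole multiples of 1 fragment for 98.2 to 98.4% of values in each library under 30 fragments (tolerance 0.02), which gave the depth. The 12 columns were matched to samples by title. IDs were given symbols, lengths and coordinates from GENCODE M21 (GRCm38).

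Genes of at least 1 FPKM in 3 libraries were tested as log2(FPKM + 1), which understates changes of low genes, with limma 3.58.1 (trend) in R 4.3.3 over all libraries with 4 group means and Benjamini-Hochberg adjusted p over all 12871 genes, called under 0.05. Every adjusted p of a difference is from this fit unless stated. Slopes on Gapdh used the same model. Correlations of deviations used exact permutation within groups (all 1296 arrangements). Steps were tested on simulated data. The members and lists were chosen with earlier results of these data known. Values in every library are given for Gapdh, Hif1a, Slc2a1, Ldha, Pgk1 and Vegfa and for up to 6 called members with the largest change per comparison, and from other lists up to 5 called genes. One gene of the reference list is not reported here. Markers of other cell types are given as sums. Copies were found with blastn 2.17.0 against GENCODE M21 transcripts, and 100-base windows by exact match on both strands. Promoters are from RefSeq (GRCm38.p6). Alternatives were another pseudocount (0.1), no filter, TPM, median-ratio scaling, no trend, voom on recovered fragments, only the libraries compared, a replicate block and each library left out.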

Additional observations from a re-analysis of the deposited data

Results flagged for a closer look

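For 5 members the genotype difference differed between the media by the interaction term of the limma model (adjusted p in the report), given here as the knockout minus control difference in adipogenic medium minus that in osteogenic medium on the log2(FPKM + 1) scale. The values were -1.69 for Aldoc, 1.65 for Adm, 0.61 for Eno2, -0.45 for Pfkfb4 and -0.40 for Slc16a1. Those of Aldoc, Adm and Pfkfb4 passed whichever of the 12 libraries was left out. Slc16a1 passed in 5 of the 12 such fits and Eno2 in 1, that without control adipogenic replicate 2. The genotype difference of Aldoc and Adm had opposite signs in the 2 media.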

How the results depend on the processing

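Counts of called members depended on which libraries shared the estimate of the spread. With only the libraries compared, 16 members were called in osteogenic medium (4 over all libraries), 5 in adipogenic medium (17), 0 between media in control cells (19) and 16 in knockout cells (5), and the Gapdh difference of 1.69 in osteogenic medium passed (adjusted p = 0.0388). The fit that gave 0 held only the control libraries, control adipogenic replicate 2 among them, and the reason for the 0 was not tested. Without the filter on low values the counts were 10 in adipogenic medium, 3 for the interaction and 10 between media in control cells. Beside these stood 3808, 2073 and 2040 calls among the 30520 genes above 0 in at least 1 library. With TPM 1 member was called in osteogenic medium, and in adipogenic medium 3 were higher and 9 lower, in place of 2 and 15. Among all genes TPM gave 526 calls in osteogenic and 4162 in adipogenic medium. The cause of the change with TPM was not tested. TPM moved the median of all genes by 0.16 in adipogenic medium, 0.17 for the interaction and -0.11 between media in control cells, and changed no sign of a called member. The Pgk1 slope count was 0 with osteogenic libraries only.

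Leaving out 1 library gave 2 to 3 calls in osteogenic medium, with 2 without control replicate 1, control replicate 2 or knockout replicate 2. In adipogenic medium it gave 7 to 31, with 31 without control replicate 2 and 7 to 10 without any other. The interaction gave 3 to 29, with 29 without control adipogenic replicate 2 and 3 to 5 otherwise. Between media it gave 1 to 31 in control cells, with 31 without that library and 1 to 6 otherwise, and 4 to 5 in knockout cells. The calls among all tested genes moved as well. They numbered 532 to 670 in osteogenic medium. In adipogenic medium they were 6569 without control replicate 2 and 2791 to 3843 otherwise. For the interaction they were 5434 without that library and 1798 to 2537 otherwise. Between media they were 6156 and 1361 to 1589 in control cells, and 2500 to 2864 in knockout cells. The Gapdh difference ranged from 1.30 to 2.28 in osteogenic medium and from -1.65 to -0.22 in adipogenic medium, its SD from 0.890 to 1.12, and the Pgk1 slope count from 0 to 23, the 0 without control adipogenic replicate 2. The slope count for Gapdh was 0 under every alternative run, for the members and for all genes alike.

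Pseudocount 0.1, median-ratio scaling, no trend and voom kept every count within 1.5 times of its value, and voom called 1207 and 4194 of all genes between genotypes in osteogenic and adipogenic medium. With the replicate number as a block, 3, 17, 6, 20 and 5 members were called in osteogenic medium, in adipogenic medium, for the interaction and between media in control and knockout cells. In the same order, 1018, 4167, 2473, 2907 and 3471 of all tested genes were called. Deviations of same-numbered libraries correlated at -0.286 to 0.466, so the numbers were not taken to pair the samples. Depth limited Ankrd37 and Egln3, with as few as 10 and 35 fragments.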
